A study of Mus musculus with 16 samples.

Results

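The 33 genes described here encode enzymes and regulators of cholesterol and fatty acid synthesis, and they are 33 of the 22096 gene symbols in the expression tables. They comprise 18 genes of sterol synthesis, 6 of sterol sensing and transport, and 9 of fatty acid synthesis. The list was taken by name. It was proposed after differences between 12/- embryos and other embryos had been seen in these libraries, so their values in 12/- against the other groups are given below as a description. Where calls in these comparisons are counted, the share of all genes tested stands beside the count and nothing is read from it. Of the 33 genes, 31 had a mean of at least 1 FPKM (fragments per kilobase of transcript, scaled by a library's mapped fragments) and entered the fits: 17 of sterol synthesis, 6 of sensing and transport, and 8 of fatty acid synthesis. Hmgcs1 was listed at 0 in every library and Me1 had a mean FPKM of 0.902.

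RNA came from CD31+ endothelial cells of mouse embryos at day 9.5 of development, sorted from the whole embryo, and the embryos differed in their Notch1 alleles. Notch1 is a cell surface receptor, and its intracellular domain is cut free and acts in the nucleus. The groups were +/+ (wild type on both alleles), +/- (1 deleted allele), +/vg (1 allele with an amino acid substitution that moves the cleavage site and yields a shorter-lived intracellular domain), +/12 (1 allele that encodes the intracellular domain of Notch2 in place of Notch1's own), 12/vg and 12/-, which carry no wild-type allele. The first 4 groups and 12/- had 3 libraries each and 12/vg had 1. The labels call endothelial development normal in +/+, +/-, +/vg and +/12 (the 4 normal groups below), partly disturbed in 12/vg and disturbed in 12/-. They do not say how many embryos made a library, so the errors and p-values describe how libraries varied, and some of that variation may be technical. Since these are bulk samples, fewer cells that express a gene and less RNA of it per cell cannot be told apart.

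Cholesterol is made from acetyl-CoA. Mevalonate is built first, then isoprenoid units, then squalene, which is oxidised and closed into the first sterol and trimmed to cholesterol. Fatty acids are made from the same precursor by carboxylation and repeated elongation, and desaturases then add double bonds. Genes of both routes are targets of the SREBP transcription factors, which Scap carries out of the endoplasmic reticulum when sterols are scarce and Insig proteins hold back when sterols are plentiful. Endothelial cells both make these lipids and take them up, and membrane cholesterol has been tied to signalling through several surface receptors.

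The aligned sequence was 0.189 gigabases for +/- replicate 2, 0.262 for the 12/vg library and 1.11 to 1.80 for the other 14 libraries. The 10 endothelial markers summed to 845 to 1000.0 scaled FPKM in the 4 normal groups and 974 to 1154 in 12/-, and none of the 7 neural markers had a mean FPKM of 1. Markers of yolk sac endoderm and liver reached 73.8 in 1 normal library and 13.4 in the 12/vg library, against at most 5.85 in 12/-. Over the 5 of these markers that were tested, the shallow +/- replicate 2 stood at 69.7. The values were 35.0 in +/+ replicate 1, 10.7 in +/vg replicate 2 and at most 5.08 in 12/-. Megakaryocyte markers ran from 249.7 to 2001 in the normal groups and from 364 to 1528 in 12/-. Erythroid markers ran from 92.7 to 242 in the normal groups, from 81.6 to 334 in 12/- and stood at 25.6 in the 12/vg library. Cardiomyocyte markers ran from 21.9 to 79.6 in the normal groups and from 34.4 to 45.2 in 12/-, mesenchyme markers from 21.3 to 45.9 and from 27.8 to 36.2, and macrophage markers from 4.16 to 8.93 and from 6.40 to 7.23. The part of these cells in the results below was not tested. Notch2 ran from 3.40 to 4.41 scaled FPKM in the 7 libraries with a 12 allele and from 2.10 to 3.41 in the 9 without, and Notch1 from 14.5 to 19.7 and from 16.4 to 23.3. Library numbers carried by the deposited tables fell in a low range (203 to 248, 9 libraries) and a high range (371 to 380, 7 libraries). All libraries with a 12 allele were in the low range and all +/+ libraries in the high range, so that for these groups range and genotype cannot be told apart. What the ranges stand for is not given in the labels.

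Across the sterol synthesis genes, the level in 12/- lay below the mean of the 4 normal groups for 16 of 17. The median log2 difference was -0.46, where the median over all 10550 genes tested was -0.005. Differences are on the scale of log2(FPKM + 1) after scaling each library (scaled FPKM), with the standard error (SE) from a limma fit over all 16 libraries. Against the single groups the medians were -0.35 (+/+), -0.33 (+/12), -0.36 (+/-) and -0.59 (+/vg), and these comparisons share the 12/- libraries. The +/+ median was -0.54 with the library number range as a covariate. Here and below, that covariate was estimated only within +/- and +/vg, the groups with libraries in both ranges. It cannot separate range from genotype for +/+ and 12/-. None of the 31 genes was called at a limma adjusted p under 0.05 in 12/- against the mean of the normal groups, where 83 of 10550 genes (0.787%) were.

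**Figure D1:**
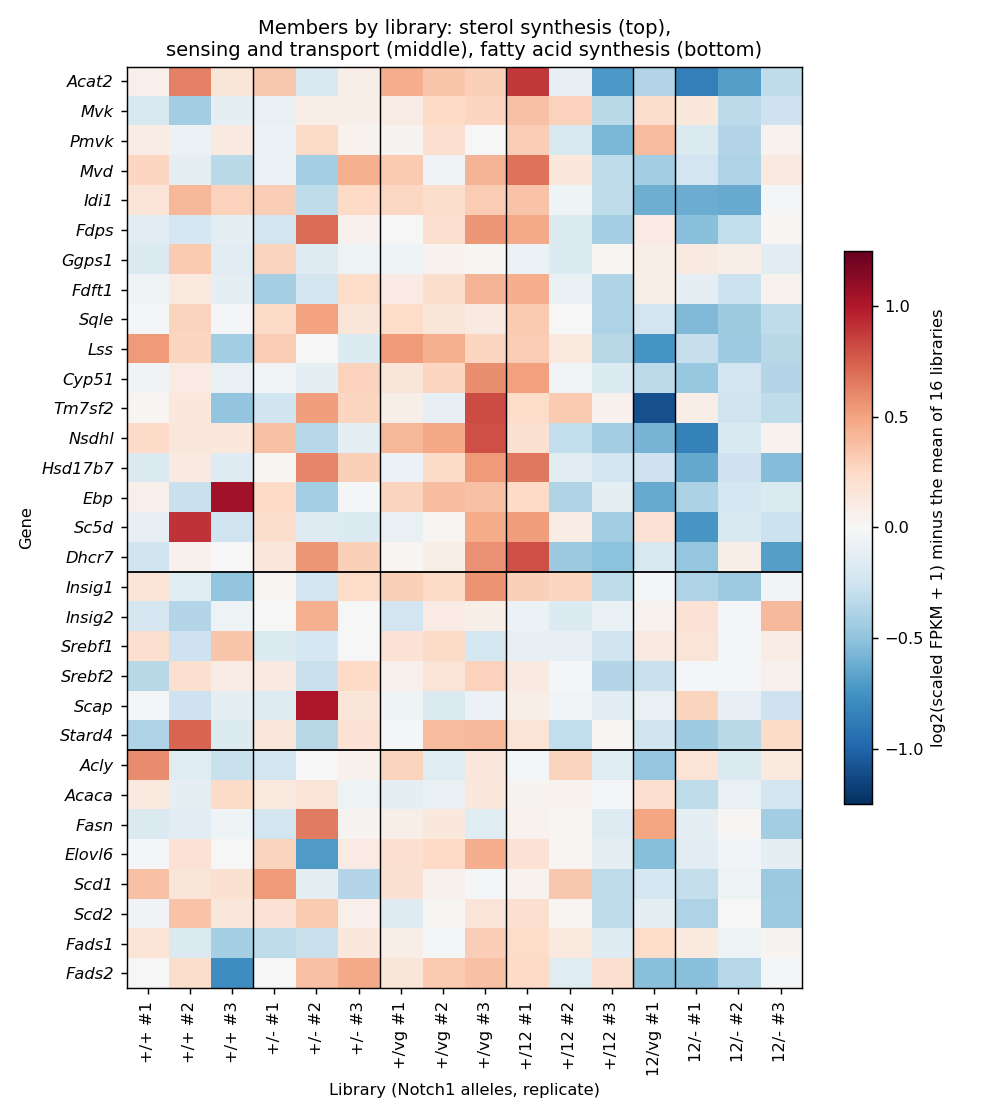
The colour of each cell is log2(scaled FPKM + 1) of 1 gene in 1 library minus that gene's mean over the 16 libraries, with genes in rows by role and libraries in columns by genotype. Most sterol synthesis genes are below their mean in the 3 12/- libraries and in +/12 replicate 3, and above it in +/12 replicate 1 and +/vg replicate 3.

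The route opens with Acat2, the cytosolic thiolase that joins acetyl-CoA units (mm9 chr17:13135907-13153591). It read 14.7, 22.2 and 15.7 scaled FPKM in +/+, 18.0, 12.1 and 14.9 in +/-, 19.5, 18.0 and 17.4 in +/vg and 26.7, 13.0 and 8.11 in +/12. The values were 10.7 in the 12/vg library and 7.28, 8.29 and 11.0 in 12/-. Of the 12 normal libraries, 11 lay above every 12/- library, and the exception was +/12 replicate 3. The log2 difference of -0.81 ± 0.25 (SE) was the most negative of the 31 genes. Mvk, Pmvk and Mvd, the kinases and the decarboxylase of the mevalonate steps, had smaller differences of -0.17 ± 0.14, -0.17 ± 0.15 and -0.25 ± 0.22, and the 12/- and normal libraries overlapped in each.

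Idi1 (chr13:8884851-8891642), which interconverts the isoprenoid building blocks, read 11.4, 13.8 and 12.5 scaled FPKM in +/+, 12.7, 7.92 and 12.2 in +/-, 12.3, 12.0 and 12.8 in +/vg and 13.2, 9.68 and 7.93 in +/12. It was 6.25 in the 12/vg library and 6.20, 6.17 and 9.94 in 12/-, where 12/- replicate 3 stood apart from the other 2 and inside the normal range. The log2 difference was -0.58 ± 0.17 (SE). Fdps, which makes farnesyl diphosphate, differed by -0.33 ± 0.21. Ggps1 leads away from sterols to the geranylgeranyl chains used to anchor proteins to membranes, and it was the sterol list's only gene with a positive difference. It read 6.59, 9.81 and 6.81 scaled FPKM in +/+, 9.47, 6.73 and 7.27 in +/-, 7.32, 7.87 and 7.69 in +/vg and 7.16, 6.67 and 7.74 in +/12. With 8.13 in the 12/vg library and 8.34, 8.13 and 6.87 in 12/-, its 12/- libraries lay inside the normal range, and the difference was 0.04 ± 0.12 (SE) and turned negative without 12/- replicate 1.

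Fdft1, the squalene synthase at the first step committed to sterols, had the highest difference of the sterol list after Ggps1, -0.13 ± 0.16 (SE). It read 12.4, 14.0 and 11.6 scaled FPKM in +/+, 9.33, 10.7 and 15.2 in +/-, 13.8, 15.0 and 17.5 in +/vg and 17.8, 12.0 and 9.63 in +/12, and 13.5 in the 12/vg library and 11.8, 10.4 and 13.2 in 12/-, again inside the normal range. The next enzyme, Sqle, is the squalene epoxidase and a known control point of the route (chr15:59146646-59162748). It read 32.5, 40.1 and 32.5 scaled FPKM in +/+, 38.9, 47.0 and 36.6 in +/-, 38.7, 36.6 and 35.8 in +/vg and 41.6, 32.7 and 24.9 in +/12. The 12/vg and 12/- values were 27.8 and 22.1, 24.0 and 26.2. Its mean was 24.1 ± 2.04 scaled FPKM in 12/- (SD, n = 3), against 35.0 ± 4.39 in +/+, 40.8 ± 5.48 in +/-, 37.0 ± 1.50 in +/vg and 33.1 ± 8.36 in +/12 (SD, n = 3 each). Only +/12 replicate 3, at 24.9, reached into the 12/- range, and 11 of the 12 normal libraries lay above all 3 12/- libraries. The log2 difference was -0.57 ± 0.13 (SE). Without +/12 replicate 3, Sqle was the 1 member called, with a difference of -0.61, where 77 of 10550 genes tested were called. This is given as a description because the list was chosen on this contrast.

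Lss (chr10:75994371-76016679) closes the ring to lanosterol. Its levels were 8.20, 6.65 and 3.70 scaled FPKM in +/+, 6.96, 5.33 and 4.65 in +/-, 8.17, 7.67 and 6.65 in +/vg and 6.92, 5.90 and 3.99 in +/12. They were 2.81 in the 12/vg library and 4.21, 3.65 and 4.01 in 12/-, and 10 of 12 normal libraries lay above all 12/- libraries, with +/+ replicate 3 and +/12 replicate 3 inside their range. The log2 difference was -0.52 ± 0.18 (SE). In the 12/vg library Lss was lower than in any other library, at a depth of 0.262 gigabases.

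Cyp51 and Hsd17b7 act after the ring is closed, Cyp51 (chr5:4080673-4104697) as the demethylase of lanosterol and Hsd17b7 (chr1:171879667-171899336) as a ketone reductase. They were the 2 of 17 sterol synthesis genes whose 12/- libraries all lay below all 12 normal libraries, a pattern shown by 0.929% of the genes tested. Cyp51 is described because of that pattern, after its values were seen. It read 10.3, 11.5 and 9.96 scaled FPKM in +/+, 10.4, 9.78 and 13.2 in +/-, 12.0, 13.0 and 16.5 in +/vg and 15.7, 10.4 and 9.34 in +/12, and 8.26 in the 12/vg library and 7.38, 8.87 and 8.03 in 12/-. The means were 8.09 ± 0.746 in 12/- and 10.6 ± 0.808 in +/+ (SD, n = 3 each), and the log2 difference from the normal mean was -0.48 ± 0.14 (SE). Hsd17b7 had low levels throughout, 2.42, 3.17 and 2.45 scaled FPKM in +/+, 2.92, 4.90 and 3.73 in +/-, 2.66, 3.55 and 4.57 in +/vg and 5.09, 2.50 and 2.26 in +/12. It was 2.23 in the 12/vg library and 1.47, 2.23 and 1.64 in 12/-, and the difference was -0.62 ± 0.19 (SE). For both genes the lowest normal library was +/12 replicate 3, at 9.34 (Cyp51) and 2.26 (Hsd17b7), close to the highest 12/- values of 8.87 and 2.23.

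Sc5d, the desaturase near the end of the route (chr9:42062259-42072383), read 3.85, 8.75 and 3.38 scaled FPKM in +/+, 5.05, 3.66 and 3.61 in +/-, 3.90, 4.29 and 6.17 in +/vg and 6.46, 4.55 and 2.84 in +/12. Its +/+ replicate 2 was more than the other +/+ libraries together. The values were 4.92 in the 12/vg library and 2.14, 3.56 and 3.31 in 12/-, and the difference was -0.48 ± 0.24 (SE). The remaining late enzymes differed by -0.46 ± 0.19 (Nsdhl), -0.48 ± 0.25 (Dhcr7), -0.38 ± 0.22 (Ebp) and -0.30 ± 0.21 (Tm7sf2). Nsdhl, a decarboxylating dehydrogenase, removes a carbon attached to the ring, and Ebp moves a double bond. Tm7sf2 and Dhcr7 reduce double bonds, Dhcr7 in the last step to cholesterol. In all 4 the 12/- and normal libraries overlapped.

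**Figure D2:**
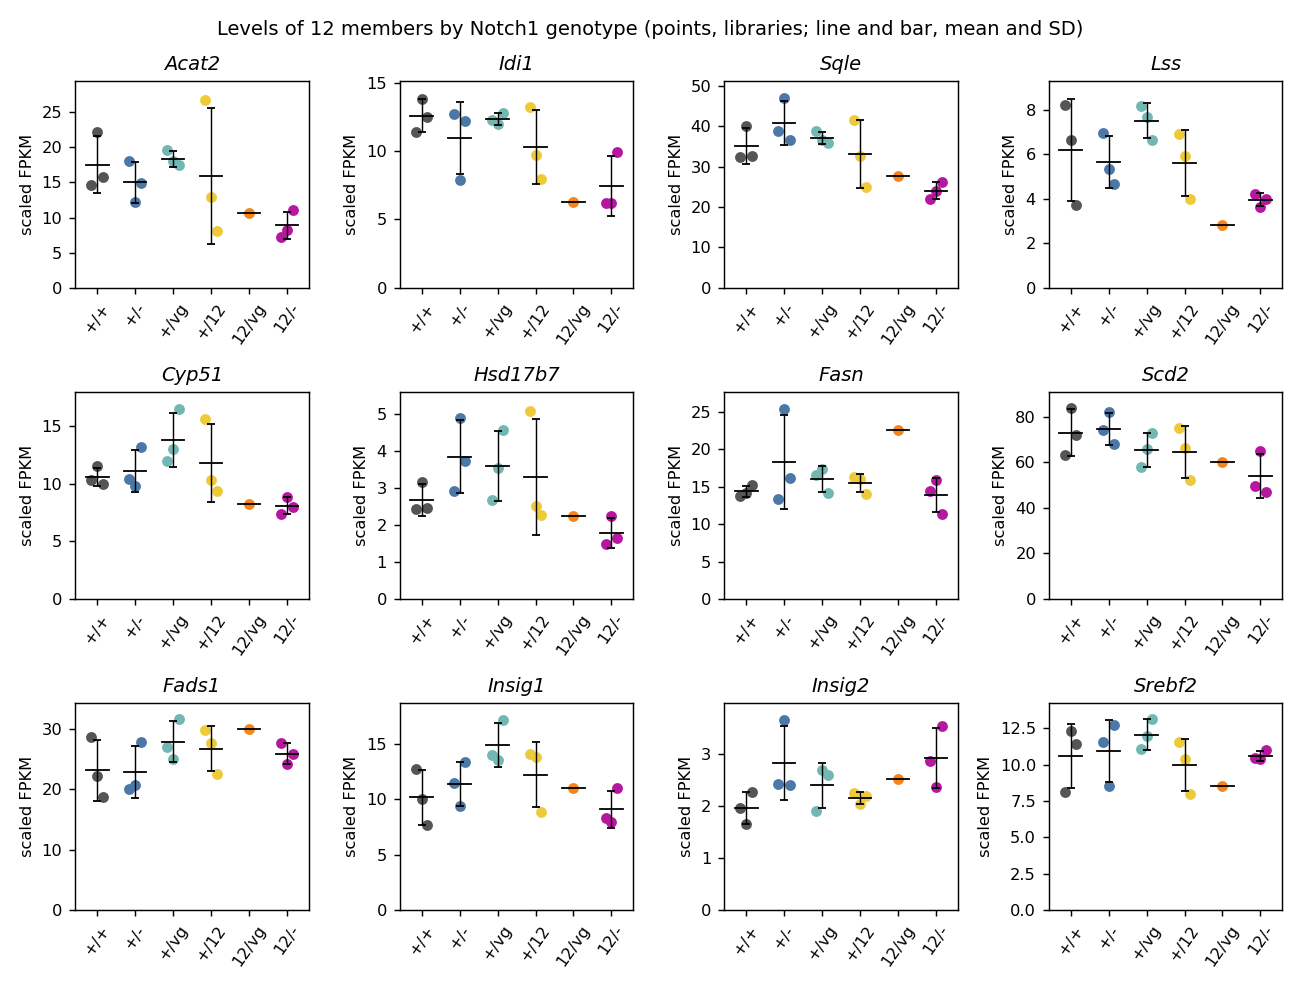
Scaled FPKM of 12 genes (vertical axes, linear from 0) by Notch1 genotype, with 1 point per library, a line at the mean and a bar of 1 SD for groups of 3. In Cyp51 and Hsd17b7 the 3 12/- points lie below all 12 points of the normal groups, in Sqle 1 +/12 point reaches them, and in Fads1 and Srebf2 the groups overlap.

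Promoter sequence is shown for genes of the sterol route with large differences and for 3 genes that lack a CCAAT match in the stretch shown, as context for members that were low in the same libraries. RefSeq windows of 300 bases (250 before to 50 after a start, GRCm38.p6) matched 26 of the 33 genes, and the mm9 gene coordinates above belong to another build. Sqle, Fdps, Fdft1, Scd1, Scd2, Fads1 and Stard4 had no entry. TCACNCCAC, the form of the sterol regulatory element searched on both strands, matched 1 of 15 sterol synthesis genes (Hmgcs1), 0 of 5 sensing genes and 0 of 6 fatty acid genes, against 1.31% of genes tested. CCAAT, searched on both strands, matched 14 of 15 sterol synthesis genes, 4 of 5 sensing genes and 3 of 6 fatty acid genes, against 42.9% of genes tested and 41.1% of all genes with a window. GGGCGG (GC box) matched 13 of 15, 5 of 5 and 3 of 6, against 72.1% of genes tested and 38.2% of all. A gene with more than 1 window was counted if any of them matched. By window, CCAAT matched 14 of 18, 5 of 10 and 3 of 7, against 37.6% of the windows of genes tested. GGGCGG matched 14 of 18, 8 of 10 and 3 of 7 windows, against 65.2%. Matches of different motifs can share bases at their edges, and a match is a string of letters, not a bound site. Other forms of the sterol regulatory element were not searched, so a gene without a match may still hold one. The genes shown were picked after these matches were seen, and the share among tested genes was added then too. Below are the 150 bases before the start on the gene's own strand, with CCAAT or its reverse complement ATTGG in capitals.
Hsd17b7 (chr1:169969206-169969355, minus strand): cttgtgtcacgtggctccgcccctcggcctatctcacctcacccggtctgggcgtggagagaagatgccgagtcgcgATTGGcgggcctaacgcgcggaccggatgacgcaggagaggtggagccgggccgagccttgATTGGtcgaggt
Idi1 (chr13:8885456-8885605, plus strand): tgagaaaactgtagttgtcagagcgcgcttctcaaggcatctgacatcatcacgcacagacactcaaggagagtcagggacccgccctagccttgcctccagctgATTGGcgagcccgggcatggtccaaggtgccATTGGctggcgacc
Lss (chr10:76531455-76531604, plus strand): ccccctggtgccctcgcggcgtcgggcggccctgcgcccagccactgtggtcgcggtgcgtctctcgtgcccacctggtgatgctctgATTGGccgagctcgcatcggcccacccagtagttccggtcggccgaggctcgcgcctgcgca
Sc5d (chr9:42264301-42264450, minus strand): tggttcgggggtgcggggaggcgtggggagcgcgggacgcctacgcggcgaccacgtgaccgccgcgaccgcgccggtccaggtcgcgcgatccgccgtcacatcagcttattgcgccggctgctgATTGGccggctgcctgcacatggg
Cyp51 (chr5:4104698-4104847, minus strand): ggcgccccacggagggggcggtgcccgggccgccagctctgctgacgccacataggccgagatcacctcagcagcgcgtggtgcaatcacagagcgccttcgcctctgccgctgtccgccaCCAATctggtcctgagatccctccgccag
Insig1 (chr5:28071262-28071411, plus strand): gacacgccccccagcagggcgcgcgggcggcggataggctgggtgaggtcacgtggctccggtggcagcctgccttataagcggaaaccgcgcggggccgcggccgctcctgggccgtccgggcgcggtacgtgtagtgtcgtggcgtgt
Acat2 (chr17:12960726-12960875, minus strand): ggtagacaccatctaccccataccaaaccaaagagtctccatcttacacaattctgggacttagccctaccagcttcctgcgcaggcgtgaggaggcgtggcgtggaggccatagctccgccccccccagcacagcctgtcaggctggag
Fads2 (chr19:10101504-10101653, minus strand): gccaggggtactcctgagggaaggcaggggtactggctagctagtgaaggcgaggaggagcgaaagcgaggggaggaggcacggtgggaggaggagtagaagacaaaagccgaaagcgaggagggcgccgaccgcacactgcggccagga

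In these stretches Hsd17b7 and Idi1 held 2 matches each, and Lss, Sc5d and Cyp51 held 1. The match nearest a start began 12 bases before it (Hsd17b7), and those of Cyp51, Sc5d and Lss began 29, 24 and 62 bases before it. The stretches of Insig1, Acat2 and Fads2 held none, although Insig1 had 1 further upstream. Acat2, without a match, had the most negative difference of the list, and Ggps1, with 3 in its window, the only positive difference among the sterol synthesis genes. Any link between matches and differences was not tested.

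The sensing and transport genes had a median log2 difference of -0.03 between 12/- and the normal mean, with 4 of 6 negative. This median turned to 0.01 without 12/- replicate 3 and to 0.04 without scaling, where the median over all genes tested was 0.06. Insig1 retains the SREBP and Scap complex in the endoplasmic reticulum and is itself an SREBP target (chr5:28397951-28405202). It read 12.7, 10.0 and 7.71 scaled FPKM in +/+, 11.5, 9.37 and 13.3 in +/-, 14.0, 13.5 and 17.1 in +/vg and 14.0, 13.8 and 8.82 in +/12, and 11.0 in the 12/vg library and 8.34, 7.93 and 11.0 in 12/-. Its difference of -0.37 ± 0.17 (SE) had the sign of the sterol enzymes. Insig2, its relative that is less dependent on sterol state, had the opposite sign, 0.24 ± 0.13 (SE). It read 1.97, 1.66 and 2.28 scaled FPKM in +/+, 2.43, 3.66 and 2.41 in +/-, 1.91, 2.69 and 2.61 in +/vg and 2.26, 2.04 and 2.21 in +/12, and 2.53 in the 12/vg library and 2.88, 2.38 and 3.54 in 12/-, so 7 of 12 normal libraries lay below all 12/- libraries. Levels of Insig2 were among the lowest of the tested members, and 1 of its 2 listed transcripts was assigned 0% of them in every library.

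The SREBP genes themselves and their escort lay near 0. Srebf2, whose product acts mainly on sterol genes, read 8.13, 12.3 and 11.4 scaled FPKM in +/+, 11.5, 8.55 and 12.7 in +/-, 11.0, 12.0 and 13.1 in +/vg and 11.5, 10.4 and 8.00 in +/12, and 8.55 in the 12/vg library and 10.4, 10.4 and 11.0 in 12/-, a difference of -0.02 ± 0.14 (SE). Srebf1, whose products act mainly on fatty acid genes, read 4.11, 2.71 and 4.63 scaled FPKM in +/+, 2.92, 2.81 and 3.40 in +/-, 4.03, 4.22 and 2.80 in +/vg and 3.12, 3.13 and 2.74 in +/12, and 3.78 in the 12/vg library and 3.95, 3.39 and 3.71 in 12/-, a difference of 0.11 ± 0.13 (SE). Scap read 6.08, 5.01 and 5.62 scaled FPKM in +/+, 5.42, 13.5 and 6.96 in +/-, 5.95, 5.33 and 5.83 in +/vg and 6.57, 6.03 and 5.50 in +/12, and 5.72 in the 12/vg library and 7.71, 5.72 and 4.99 in 12/-. Its value of 13.5 came from the shallow +/- replicate 2 and exceeded all other libraries, and the difference was -0.04 ± 0.19 (SE). Stard4, a carrier of cholesterol between membranes, read 4.92, 11.8 and 5.90 scaled FPKM in +/+, 7.55, 5.10 and 7.76 in +/-, 6.69, 9.17 and 9.24 in +/vg and 7.72, 5.27 and 6.81 in +/12, and 5.54 in the 12/vg library and 4.65, 5.14 and 8.14 in 12/-, a difference of -0.25 ± 0.22 (SE) with overlapping libraries.

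Fatty acid synthesis genes had a median log2 difference of -0.22 between 12/- and the normal mean, with 6 of 8 negative. The single-group medians were -0.13 (+/+), -0.19 (+/12), -0.29 (+/-) and -0.24 (+/vg). They depended on single libraries and on scaling. The +/+ median was -0.20 without +/+ replicate 3, -0.20 without 12/- replicate 3, -0.24 with the library number range as a covariate and -0.06 without scaling. The +/- median was -0.14 without +/- replicate 1 and -0.18 with the covariate. The +/12 median was -0.13 without +/12 replicate 1, -0.11 with array weights and -0.06 without scaling, and the +/vg median -0.14 without scaling. In the unscaled fit the medians over all genes tested were themselves 0.06 (+/+), 0.11 (+/12), -0.007 (+/-) and 0.08 (+/vg). No fatty acid gene had all 12/- libraries below all normal ones. Acly, which supplies acetyl-CoA to both routes, read 23.9, 13.9 and 12.6 scaled FPKM in +/+, 13.0, 15.6 and 16.2 in +/-, 19.1, 13.9 and 17.1 in +/vg and 15.3, 19.1 and 13.9 in +/12, and 10.8 in the 12/vg library and 17.6, 13.6 and 17.1 in 12/-, a difference of 0.01 ± 0.17 (SE). Acaca, which makes malonyl-CoA, ran from 2.93 to 3.59 in 12/- and differed by -0.25 ± 0.10, with 10 of 12 normal libraries above all 12/- ones. Fasn, the synthase that builds palmitate, differed by -0.19 ± 0.15, and its 2 highest values, 25.3 and 22.5, were in the 2 shallow libraries.

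Elovl6 lengthens palmitate. Its levels were 5.73, 6.71 and 5.84 scaled FPKM in +/+, 7.25, 3.16 and 6.32 in +/-, 6.84, 7.09 and 8.33 in +/vg and 6.70, 5.95 and 5.27 in +/12, and 3.72 in the 12/vg library and 5.19, 5.66 and 5.31 in 12/-, so that the 12/- libraries varied little and the difference was -0.16 ± 0.16 (SE). The desaturases Scd1 and Scd2 put the first double bond into stearate. They lie in 1 cluster on chromosome 19 and are near copies, so reads may be split between them and the values of Scd1 are uncertain. Scd2 was the member with the highest level in these cells, 63.1, 83.6 and 71.8 scaled FPKM in +/+, 73.9, 82.0 and 68.0 in +/-, 57.8, 65.7 and 72.7 in +/vg and 74.9, 66.2 and 52.1 in +/12. It was 60.0 in the 12/vg library and 49.4, 65.0 and 47.1 in 12/-, a difference of -0.36 ± 0.13 (SE). Scd1, with 1.97, 1.56 and 1.62 scaled FPKM in +/+, 2.32, 1.11 and 0.778 in +/-, 1.62, 1.39 and 1.26 in +/vg and 1.36, 1.89 and 0.849 in +/12, and 0.972 in the 12/vg library and 0.870, 1.20 and 0.671 in 12/-, had the lowest level of the tested members and a difference of -0.36 ± 0.19 (SE).

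Fads2 and Fads1 desaturate polyunsaturated fatty acids in sequence and share another cluster on chromosome 19. Fads2 read 13.3, 15.7 and 7.44 scaled FPKM in +/+, 13.4, 17.5 and 19.1 in +/-, 15.0, 17.1 and 17.6 in +/vg and 16.1, 12.0 and 15.5 in +/12, and 9.06 in the 12/vg library and 9.04, 10.3 and 13.3 in 12/-. With +/+ replicate 3 as the lowest library of all, 10 of 12 normal libraries lay above all 12/- ones, and the difference was -0.42 ± 0.18 (SE). Fads1 read 28.5, 22.1 and 18.7 scaled FPKM in +/+, 20.1, 20.6 and 27.8 in +/-, 26.9, 25.0 and 31.6 in +/vg and 29.8, 27.7 and 22.6 in +/12, and 29.9 in the 12/vg library and 27.6, 24.2 and 25.9 in 12/-. Its difference was 0.06 ± 0.14 (SE), turned negative with the library number range as a covariate, and the groups overlapped.

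**Figure D3:**
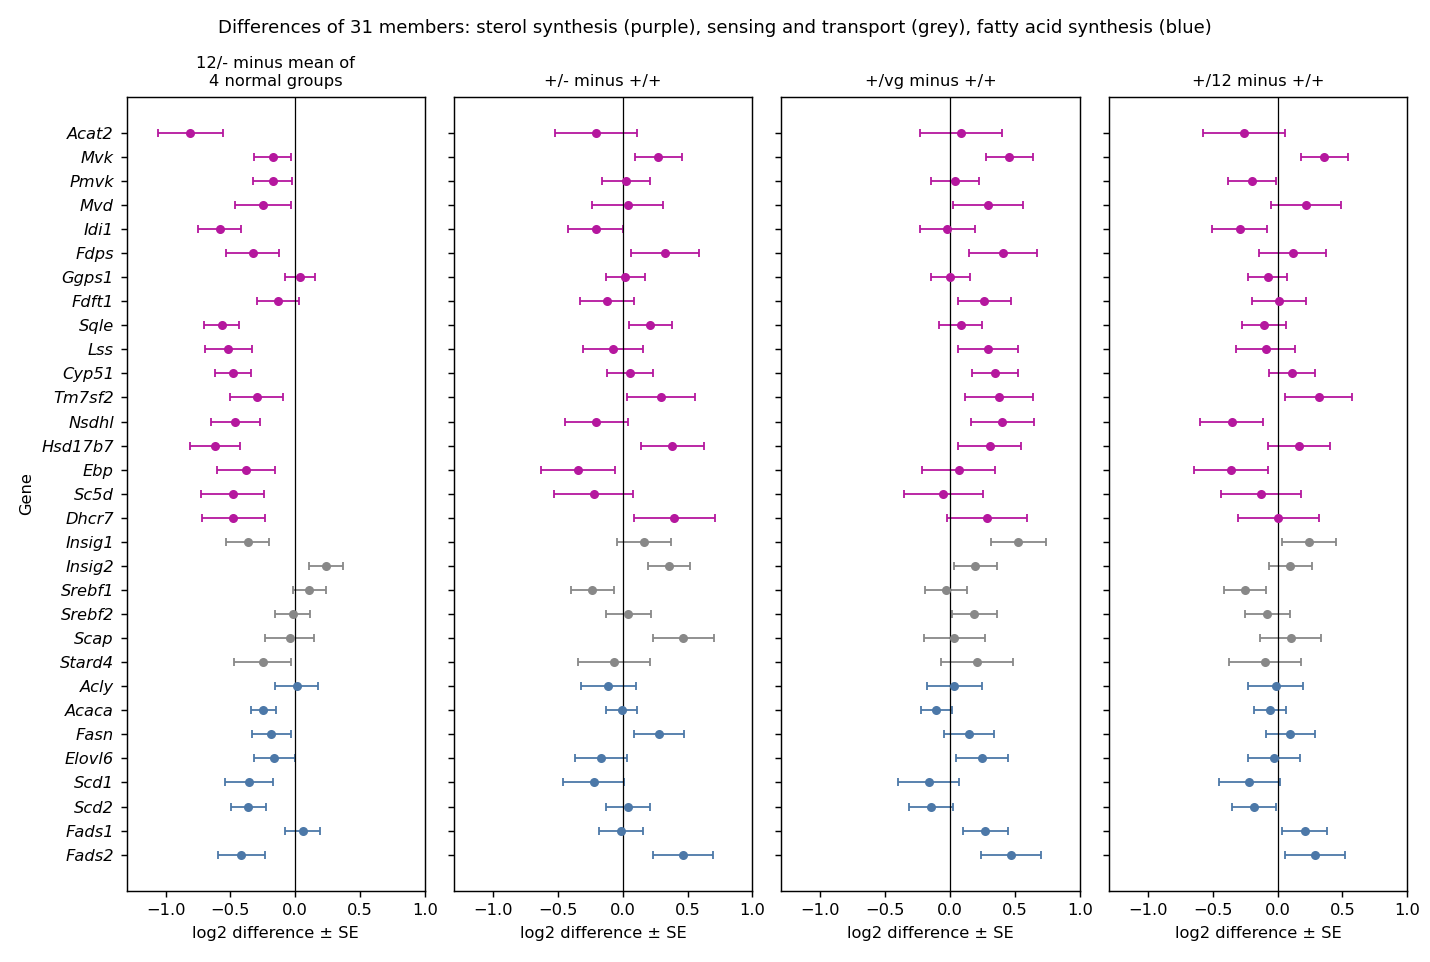
Log2 differences (horizontal axes, log2(scaled FPKM + 1), points with bars of 1 SE from the limma fit) of the 31 genes in 4 comparisons. Sterol synthesis genes are mostly left of 0 in 12/- minus the mean of the normal groups, with 16 of 17 negative, and mostly right of 0 in +/vg minus +/+, with 15 of 17 positive, while the other panels centre near 0.

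Sterol and fatty acid genes were then set beside each other in each library, as the mean deviation of a list from its 16-library mean on the log2 scale. The sterol list was at -0.39, -0.30 and -0.21 in the 3 12/- libraries, -0.26 in 12/vg, and -0.33 to 0.43 in the 12 normal libraries (median 0.10). The 5 lowest libraries were these 4 and +/12 replicate 3. The fatty acid list was at -0.19, -0.10 and -0.19 in 12/-, -0.12 in 12/vg, and -0.13 to 0.17 in the normal libraries (median 0.06). Sterol minus fatty acid was -0.20, -0.20 and -0.01 in 12/- and ran from -0.20 to 0.31 in the normal libraries, so the 2 lists could not be separated by this difference. Summed over the 17 genes, sterol synthesis came to 157 ± 16.5 scaled FPKM in 12/- (SD, n = 3) and to 203 ± 12.4 in +/+, 217 ± 12.9 in +/-, 237 ± 20.1 in +/vg and 202 ± 65.7 in +/12 (SD, n = 3 each). The 8 fatty acid genes summed to 130.1 ± 8.20 in 12/- and to 149 to 158 in the means of the normal groups.

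**Figure D4:**
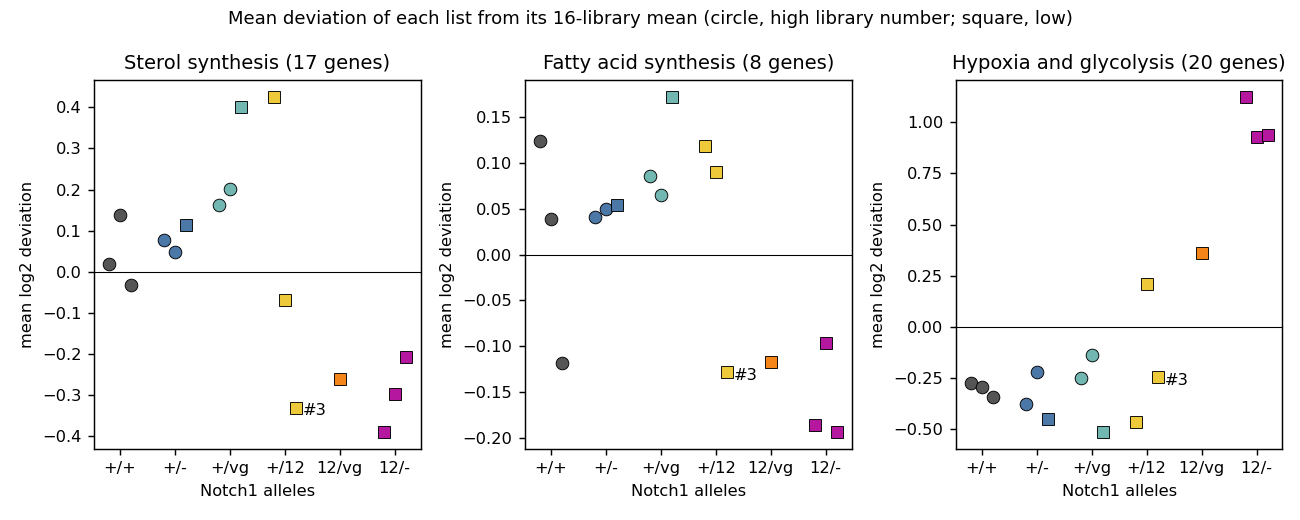
Mean log2 deviation of 3 gene lists from their 16-library means (vertical axes, own scale in each panel) by genotype, 1 point per library, with circles for the high and squares for the low range of library numbers. The third +/12 library (#3) lies with the 12/- libraries for the sterol list, at -0.33, and with the normal libraries for the hypoxia and glycolysis list, at -0.25.

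The +/12 libraries spread more widely in sterol genes than those of any other group, with an SD of 0.38 for the sterol list against 0.03 to 0.13 in the other groups of 3. The +/12 SD was also the largest for the fatty acid (0.14), sensing (0.14) and hypoxia and glycolysis (0.34) lists. For the endothelial list it was 0.09, against 0.16 in 12/-. In +/12 replicate 3, 16 of the 17 sterol genes lay below the mean of the other +/12 libraries, with a median of -0.56. In +/12 replicate 1, 1 of 17 did, with a median of 0.62. Among all genes tested, 48.2% and 50.2% lay below in these 2 libraries. Examples are Acat2, at 26.7, 13.0 and 8.11 scaled FPKM in the 3 +/12 libraries, and Dhcr7, at 16.5, 6.27 and 6.03. Fatty acid genes went the same way in +/12 replicate 3, with 7 of 8 below and a median of -0.25. These counts were made after the low values of +/12 replicate 3 were seen.

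A list of 20 hypoxia and glycolysis genes, chosen with earlier results known, moved with 12/- as well. By limma, 15 of the 20 were called higher in 12/- than in the mean of the normal groups (0.72% of genes tested were), with a list median log2 difference of 1.14. The list's mean deviation was 0.93 to 1.13 in 12/-, 0.36 in 12/vg and -0.51 to 0.21 in the normal libraries. In +/12 replicate 3, where sterol genes were low, it was -0.25, and in +/12 replicate 2, where it was 0.21, the sterol list was at -0.07. Its part in the levels of the sterol genes was not tested.

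Group by group, the 12/- libraries lay below all +/+ libraries for 6 of 17 sterol synthesis genes (9.47% of all genes tested did so), below all +/- libraries for 7 (6.44%), below all +/vg libraries for 10 (10.5%) and below all +/12 libraries for 2 (6.86%). For the 8 fatty acid genes these counts were 2, 3, 3 and 1. None of the 31 genes was called in 12/- against +/+ (0.597% of genes tested were), against +/- (0.569%), against +/vg (0.445%) or against +/12 (0.209%). The comparison with +/12 is the one in which all libraries have low library numbers. Its sterol median of -0.33 became -0.54 without +/12 replicate 3, -0.13 without +/12 replicate 1, -0.15 with array weights and -0.20 without scaling. In the unscaled fit the median over all genes tested was 0.11.

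The list was proposed on differences of 12/- embryos, so comparisons among the normal groups were tested, although they share libraries with those above. In +/- against +/+, which asks what 1 deleted allele does, no gene of the 10550 (0%) and none of the 31 was called by limma. At an unadjusted p under 0.05, Insig2 alone of the 31 was higher (0.36 ± 0.16, SE, limma adjusted p = 0.659, the smallest of the 31 genes), against 7.52% of genes tested in either direction. Insig2 read 2.43, 3.66 and 2.41 scaled FPKM in +/-, and the 3.66 came from the shallow +/- replicate 2. The sterol median was 0.03, with 10 of 17 positive, and the fatty acid median -0.01, with 3 of 8 positive. Both rested on single libraries. For the sterol median, dropping +/+ replicate 1, 2 or 3 gave 0.05, 0.11 and 0.02, dropping +/- replicate 1 or 2 gave 0.07 and 0.06, and omitting the scaling gave 0.12. The fatty acid median turned positive when +/+ replicate 1 was dropped (0.08), when any 1 of the +/- libraries was (0.002 to 0.01) and in the unscaled fit (0.07). It was -0.07 and -0.06 without +/+ replicates 2 and 3. In the unscaled fit the median over all genes tested was 0.075. Fads2 had the largest difference, 0.47 ± 0.23 (SE, limma adjusted p = 0.675), and Scap, whose value in the shallow +/- library was high, had 0.47 ± 0.24 (SE).

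In +/vg against +/+, 15 of 17 sterol synthesis genes had positive differences and the median was 0.28, against 0.006 over all genes tested. None of the 31 was called by limma, nor was any gene tested (0%). At an unadjusted p under 0.05 there were 2, Mvk and Insig1, against 7.51% of genes tested. Mvk read 6.09, 4.99 and 6.44 in +/+ and 7.64, 8.66 and 8.80 in +/vg, with a log2 difference of 0.46 ± 0.18 (SE, limma adjusted p = 0.599). Insig1, at 12.7, 10.0 and 7.71 and 14.0, 13.5 and 17.1, differed by 0.53 ± 0.21 (SE, limma adjusted p = 0.602). Nsdhl, at 9.99, 9.26 and 9.17 and 11.4, 12.0 and 15.3, differed by 0.40 ± 0.24 (SE). The sterol median rested partly on +/vg replicate 3, whose library number is in the low range. It was 0.12 without that library, 0.19 without +/+ replicate 3 and 0.13 with the range as a covariate. The fatty acid median was 0.09, with 5 of 8 positive, and it was 0.03 without +/vg replicate 1 and 0.16, 0.04 and 0.05 without +/+ replicates 1, 2 and 3.

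In +/12 against +/+, which sets the Notch2 intracellular domain on 1 allele beside wild type, 0 of the 31 genes and 0% of genes tested were called by limma. None of the 31 had an unadjusted p under 0.05, against 5.36% of genes tested. The smallest limma adjusted p of the 31 was 0.898, for Mvk (0.36 ± 0.18, SE). The sterol median was -0.08, with 8 of 17 positive, and dropping +/12 replicate 1, 2 or 3 gave -0.24, -0.03 and 0.12. Dropping +/+ replicate 2 or 3 gave 0.08 and -0.04, so its sign was set by single libraries. The fatty acid median of -0.02 likewise became -0.05 and 0.06 when +/12 replicate 2 or 3 was dropped, and 0.02 when +/+ replicate 1 was.

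In +/12 against +/-, which sets the replaced intracellular domain beside a deleted allele, none of the 31 and 0% of genes tested were called by limma, and none of the 31 had an unadjusted p under 0.05, against 4.80% of genes tested. Sqle had a difference of -0.32 ± 0.17 (SE) with a limma adjusted p of 0.881, the smallest of the 31. The sterol median was -0.06, with 6 of 17 positive, and dropping +/12 replicate 1 or 3 gave -0.18 and 0.07, and dropping +/- replicate 1 gave 0.03. The fatty acid median was -0.02 and turned to 0.07 when +/12 replicate 3 was dropped. Without scaling of the libraries, the median over all genes tested moved to -0.12 here and to 0.11 in 12/- against +/12.

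Neighbouring pathways were read from lists of related genes in 12/- against the mean of the normal groups, and no gene of them was called by limma. These lists, too, were chosen with earlier results known. Over the 6 lists together, an unadjusted p under 0.05 was reached by 5 of 60 genes upwards and by 2 downwards, against 6.56% and 4.98% of all genes tested. Of 11 other sterol and isoprenoid genes, 5 were negative and the median was 0.01. Sc4mol, an oxidase of methyl groups attached to the ring on the route to cholesterol, differed by -0.30 ± 0.27 (SE). Of 6 other genes of SREBP processing, 5 were negative with a median of -0.05, and Erlin1 and Erlin2 differed by -0.17 ± 0.13 and 0.12 ± 0.12.

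Genes of sterol uptake, storage and efflux had positive differences in 9 of 9 tested, out of 14 listed, with a median of 0.14. Vldlr had a mean FPKM of 0.853 and was not tested. It read 2.52, 2.77 and 1.98 scaled FPKM in 12/-, 1.29 in the 12/vg library and 0.116 to 1.21 in the normal libraries. For the other untested genes, Lipa, Nr1h3, Mylip and Lrp1, the 12/- values lay inside the normal range. Nr1h2, a nuclear receptor for oxidised sterols, differed by 0.30 ± 0.13 (SE) and Stard3, a sterol carrier of late endosomes, by 0.25 ± 0.17. Fatty acid uptake and lipid droplet genes were positive in 6 of 6 tested, out of 10 listed, with a median of 0.34. Fabp5, a fatty acid binding protein, ran from 49.96 to 105 scaled FPKM in 12/- and from 35.1 to 56.3 in the normal libraries, a difference of 0.58 ± 0.21 (SE). Slc27a4, a fatty acid transport protein, differed by 0.42 ± 0.12 (SE). The other fatty acid synthesis and activation genes had a median of -0.07 (4 of 13 positive), with Ptplad1 at -0.25 ± 0.23 and Slc25a1, the citrate carrier, at 0.20 ± 0.23. Fatty acid oxidation genes had a median of -0.02 (5 of 15 positive), with Slc25a20, the carnitine carrier, at 0.40 ± 0.17 and Hadhb, a subunit of the trifunctional protein, at -0.32 ± 0.12.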

How the data were processed

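Per the file headers, the authors deposited 1 cufflinks table per library with an FPKM and a coverage value for each of 28107 transcripts. Coverage, the authors' mean read depth over a transcript, was used only to obtain each library's aligned sequence. Per the submitters' processing notes, the aligner was TopHat2 2.0.9 and the genome build mm9. A cufflinks version is not given in the sources used. FPKM values are not counts, so no count test was used.

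FPKM was summed per symbol (Python 3.11.15, pandas 2.3.3). The 211 symbols with a status other than OK were left out of the tests, and 10550 with a mean FPKM of at least 1 were tested. Libraries were scaled by median ratios of the 8638 genes that reached FPKM 1 in all of them. limma 3.58.1 (R 4.3.3, lmFit, eBayes with trend) was fitted on log2(scaled FPKM + 1), which understates differences of low genes, to 16 libraries in 6 groups with 10 residual degrees of freedom. Tests are two-sided with Benjamini-Hochberg adjustment over all genes tested, in 9 comparisons. The fit was run on simulated data with independent noise and with added differences larger than that of any member in these comparisons. How often differences of the members' size would be called was not tested.

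The members and lists were chosen with earlier results of these data known. The genes described with every library's value are, by rule, the 5 regulators, Stard4, the 6 sterol synthesis genes with the most negative and the 2 with the most positive difference in 12/- against the normal mean, and 3 and 3 of fatty acid synthesis. Other members are given by their difference or range, and Cyp51, and the examples Mvk, Nsdhl and Dhcr7 in single comparisons, were picked after their values were seen. Of each other list, called genes or the 2 with the largest absolute difference are named, except 1 gene that is not reported here, and the called hypoxia and glycolysis genes are given as a count. The untested genes of the sterol uptake list were named after their values were seen. Of 189 list entries, 187 matched a symbol. The wild type is spelled in more than 1 way in the labels and was taken as 1 group. The scaling genes were first limited to symbols of status OK and then widened. The promoter display was first built on the sterol regulatory element and rebuilt on CCAAT after only Hmgcs1 matched. Alternatives were other scalings, pseudocounts, filters and weights, the library number range as a covariate, leaving out each replicate and leaving out the shallow libraries. Leaving out the shallow libraries together with +/12 replicate 3 was added after seeing the data.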

Additional observations from a re-analysis of the deposited data

How the results depend on the processing

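The number of members called was 0 in 151 of 153 alternative counts. The exceptions were both in 12/- against the mean of the normal groups. Without +/12 replicate 3, 1 member was called (Sqle, log2 difference -0.61), where 77 of 10550 genes tested were. The count over the other left-out libraries was 0. Without the 2 shallow libraries and +/12 replicate 3, 1 was called too (Sqle, -0.59), where 87 of 10550 genes tested were. That setting was chosen after seeing the data. In that comparison the sterol median ran from -0.53 (library number range as a covariate) to -0.32 (without 12/- replicate 1). The fatty acid median ran from -0.30 (without 12/- replicate 2) to -0.15 (no scaling, where the median over all genes tested was 0.06). Single members kept their sign in 752 of 775 alternative values, and the other sign occurred in Acly, Fads1, Ggps1, Scap and Srebf2. No paired analysis was possible because the labels give no replicate numbers, and those used here follow accession order. Depth limits the 2 shallow libraries most, where the lowest tested member held 192 aligned bases, against 3250.0 in the other 14, and 12/vg rests on 1 of them.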

Other observations

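Hmgcs1, the synthase of the mevalonate steps, was listed at 0 in all 16 libraries. Its only 2 entries lie on the unplaced mm9 sequence chr13_random, so its level is unknown here. Me1, which makes NADPH for fatty acid synthesis, ran from 0.474 to 1.04 scaled FPKM in 12/- and from 0.142 to 1.50 in the normal libraries. The split between listed transcripts of 1 gene varied between libraries. The longer of 2 Acly transcripts took 0.065% to 70.4% of the gene's FPKM, with both extremes in shallow libraries, and the minor Pmvk transcript took 0% to 26.2%, with the highest share in 12/- replicate 3.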
